A study of Mus musculus with 6 samples.

Results

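Chemokines are small secreted proteins that draw leukocytes along a gradient, and the cytokines interleukin 1 beta and TNF are the early alarm signals that switch on their transcription through the factor NF-kappa-B. In a liver loaded with dietary fat, Kupffer cells, which are the resident macrophages, recruited monocytes and sinusoidal endothelial cells are the usual sources, and thrombin can induce several of these genes through protease-activated receptors. A set of 10 such genes was picked by name: Ccl2, Ccl4, Ccl5, Ccl6, Ccl9, Cxcl1, Cxcl12, Cxcl16, Il1b and Tnf. All 10 were found by exact symbol among the 23291 genes of each deposited table.

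Livers of C57BL/6 mice were snap frozen, and their total RNA was sequenced after TruSeq library preparation. The diet group was fed a high fat diet, called Western diet in the sample titles, for 3 months, and the dabigatran group received it with 10 mg of dabigatran etexilate per gram. Dabigatran etexilate is an oral prodrug of a direct thrombin inhibitor. Both groups carried the diet, so the comparison concerns the drug within a fat-fed liver and says nothing of the effect of the diet. Age and sex are not given in the labels.

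There were 3 diet libraries (replicates 0, 1 and 2) and 2 distinct dabigatran libraries (replicates 1 and 2), since dabigatran replicate 0 had the same deposited values as replicate 1 and the pair counts as 1 library. Values are FPKM, fragments scaled by gene length and by the number of mapped fragments. Because low FPKM values step in units of 1 fragment, whole fragments could be read back for 8 of the 10 genes. They are the smallest whole numbers that the values allow: exon length implies more over the 5 libraries for Cxcl1 (67.8 against 29), Ccl5 (24.8 against 9) and Ccl2 (19.3 against 11), and with a multiple the intervals would be narrower and the limits at 0 lower. That length joins the exons of all annotated transcripts, so the implied numbers can also be too high. For Cxcl1 it is 1 block of 1875 bases, the whole gene. The steps implied about 2336814 mapped fragments in diet replicate 0, and the other libraries had 0.761 to 0.967 of that depth. Along the leading principal component (49.2% of the variance), diet replicate 1 lay at -6.16, between the other diet libraries (-29.5 and -28.8) and the dabigatran libraries (15.8 and 48.7). An exact 0 can be a failed estimate: the ribosomal protein gene Rpl30 was listed at 0 in all 3 diet libraries and at 20.3 and 4.47 FPKM in the dabigatran libraries. Genes are therefore described as listed at 0 and not as silent.

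Of the 10 genes, 6 lie on chromosome 11 (GRCm38 coordinates, GENCODE M21 annotation). Ccl9 (83572919 to 83578636, minus strand), Ccl6 (83587882 to 83593087, minus), Ccl5 (83525778 to 83530518, minus) and Ccl4 (83662584 to 83664683, plus) sit near each other in the CC chemokine cluster, Ccl2 (82035571 to 82037453, plus) lies outside that stretch, and Cxcl16 (70453983 to 70459984, minus) is apart from both. Cxcl1 is on chromosome 5 (90891241 to 90893115, plus), Cxcl12 on chromosome 6 (117168535 to 117181367, plus), Il1b on chromosome 2 (129364570 to 129371139, minus) and Tnf on chromosome 17 (35199381 to 35202007, minus). All 10 are protein coding genes. The exons of Cxcl16 share 552 bases with Zmynd15 of the other strand, so unstranded counting could mix the 2 genes, and 16.9% of its 50-base windows occur in another gene. Zmynd15 itself was listed at 0.999 to 1.73 FPKM in the 5 libraries. Il1b shares 25 exon bases with the antisense gene Il1bos. Of the windows of Ccl9, 2.0% were shared, and none were for the other 8 genes.

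RefSeq's promoter table (GRCm38.p6) held 6 of the 10 genes: Ccl6, Ccl9, Cxcl1, Cxcl12, Il1b and Tnf. The 100 bases before the start are shown for the 4 chemokines among them, all measured in every library, to set the inducible chemokine Cxcl1 beside Cxcl12, the most abundant of the set, and the cluster neighbours Ccl6 and Ccl9. Capitals mark matches to the NF-kappa-B consensus and to TATAAA, each searched on both strands of the 250 bases before the start.
Cxcl1, chr5:90891145-90891244, plus strand: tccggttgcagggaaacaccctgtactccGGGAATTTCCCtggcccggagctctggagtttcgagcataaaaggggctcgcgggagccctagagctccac
Ccl9, chr11:83578637-83578736, minus strand: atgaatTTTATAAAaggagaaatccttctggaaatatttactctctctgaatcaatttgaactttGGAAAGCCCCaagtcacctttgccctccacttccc
Ccl6, chr11:83593088-83593187, minus strand: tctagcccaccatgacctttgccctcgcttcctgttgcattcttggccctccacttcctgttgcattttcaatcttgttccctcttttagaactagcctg
Cxcl12, chr6:117168435-117168534, plus strand: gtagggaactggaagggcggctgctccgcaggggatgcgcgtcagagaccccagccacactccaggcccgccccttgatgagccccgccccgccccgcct
The NF-kappa-B consensus matched in Cxcl1, where overlapping matches on both strands begin 71 and 70 bases before the start, and in Ccl9, 35 bases before the start. It did not match in the windows of Ccl6, Cxcl12, Il1b or Tnf. Of all 32851 promoters, 7.25% held a match in the same 250 bases. TATAAA, found in 12.4% of them, matched in Ccl9 (3 overlapping or separate matches), Il1b and Tnf. The printed stretch of Cxcl12 was 73.0% G and C and that of Ccl9 38.0%. A match describes these letters and not a site in use.

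Cxcl12, the homeostatic chemokine that retains CXCR4-bearing leukocytes and is made in liver chiefly by endothelial and mesenchymal cells, was by far the most abundant of the 10. Its FPKM was 96.9, 122 and 84.1 in diet replicates 0, 1 and 2 and 139 and 98.4 in dabigatran replicates 1 and 2. It stood above 96.8% to 98.1% of all genes in each library, and its lowest value exceeded the highest of every other member. The groups overlapped, with dabigatran replicate 1 highest and diet replicate 2 lowest.

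**Figure D1:**
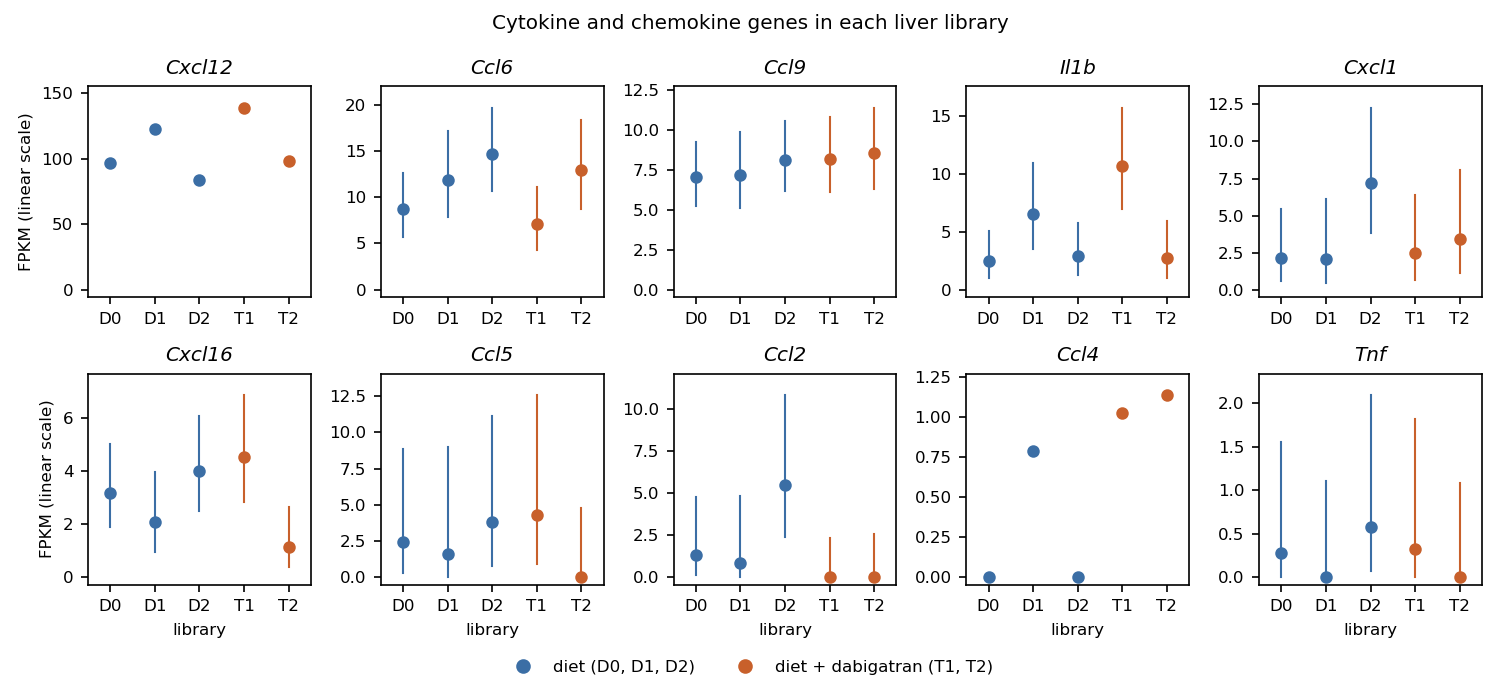
FPKM of the 10 genes (linear vertical axes, 1 panel a gene in order of mean level) in diet replicates 0 to 2 (D0, D1, D2) and dabigatran replicates 1 and 2 (T1, T2). Bars are 95% exact Poisson intervals of the recovered fragments, or the limit of 3 fragments where a gene is listed at 0, and are not available for Cxcl12 and Ccl4. Il1b stands out in T1 at 10.7 FPKM and Cxcl1 and Ccl2 in D2 at 7.17 and 5.47 FPKM, while Ccl9 stays between 7.04 and 8.57.

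Ccl6 and Ccl9, CC chemokines of a rodent subfamily that is expressed by macrophages and other myeloid cells without acute stimulation, came next. Ccl6 had 8.68, 11.8 and 14.6 FPKM in diet replicates 0, 1 and 2 (27, 28 and 44 fragments) and 7.13 and 12.9 in dabigatran replicates 1 and 2 (19 and 31 fragments). The groups overlapped, and the lowest value, in dabigatran replicate 1, had a 95% exact Poisson interval of 4.29 to 11.1 FPKM. Such intervals cover counting error only and leave out the spread between samples. They can be too narrow even for that error, since amplified reads without molecular identifiers are not independent molecules.

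Ccl9 was the steadiest member, with a coefficient of variation of 8.56% over the 5 libraries. It had 7.04, 7.22 and 8.16 FPKM with the diet (50, 39 and 56 fragments) and 8.22 and 8.57 with dabigatran (50 and 47 fragments). Both dabigatran values lay just above the highest diet value. It was the single tested member whose groups did not overlap, against 34.4% of all tested genes.

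The order of levels below Cxcl12 was not firm. Ccl6 exceeded Ccl9 in 4 of 5 libraries, Ccl9 exceeded Il1b in 4, Il1b exceeded Cxcl1 in 3, and Cxcl1 exceeded Cxcl16 in 3. Cxcl16 exceeded Ccl5 in all 5, though their ranges over libraries overlapped. Neighbours from Ccl6 down to Tnf all had overlapping ranges.

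Il1b, the inflammasome-processed cytokine that signals through the receptor Il1r1, had the largest coefficient of variation, 70.2%, among the 6 members above 0 in all 5 libraries. It had 2.47, 6.49 and 2.92 FPKM in diet replicates 0, 1 and 2 (7, 14 and 8 fragments) and 10.7 and 2.74 in dabigatran replicates 1 and 2 (26 and 6 fragments). Dabigatran replicate 1 stood highest, with an interval of 6.99 to 15.7 FPKM that lies above the intervals of diet replicates 0 and 2 (0.993 to 5.09 and 1.26 to 5.75) and of dabigatran replicate 2 (1.01 to 5.97). The second highest value was that of diet replicate 1, so high and low libraries occurred in each group.

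Tnf, the cytokine that acts through Tnfrsf1a and Tnfrsf1b, was barely detected. It had 1 fragment in diet replicate 0 (0.280 FPKM), 2 in diet replicate 2 (0.579) and 1 in dabigatran replicate 1 (0.327), and was listed at 0 in diet replicate 1 and dabigatran replicate 2. A count of 0 there allows up to 1.10 and 1.09 FPKM, above every value measured. A difference of the size of these Tnf values was therefore not detectable at this depth.

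Cxcl1, a neutrophil attractant that binds Cxcr2, had 2.13, 2.10 and 7.17 FPKM in diet replicates 0, 1 and 2 (4, 3 and 13 fragments). With dabigatran it had 2.49 and 3.45 FPKM (4 and 5 fragments). Only diet replicate 2 was high, and its interval of 3.82 to 12.3 FPKM still overlapped those of the other 4 libraries.

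Ccl2, which recruits monocytes through Ccr2, had 1.32, 0.869 and 5.47 FPKM in diet replicates 0, 1 and 2, on 2, 1 and 8 fragments. Each dabigatran library lists it at 0. The diet library that was highest for Cxcl1 was therefore highest for Ccl2 too. A count of 0 allows up to 2.31 and 2.57 FPKM in dabigatran replicates 1 and 2, above the values of diet replicates 0 and 1. At most diet replicate 2 (interval 2.36 to 10.8) therefore bears on a difference. The limit at 0 is one-sided and smaller than the upper end of a two-sided interval, so 2.31 against 2.36 does not separate the libraries. Of the 11 diet fragments, 8 came from diet replicate 2. A log2 difference from the fit without a filter is given below, and it takes both listed zeros as measured.

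Ccl5, a T cell and monocyte attractant, rested on 1 to 3 fragments where it was above 0. It had 2.46, 1.61 and 3.81 FPKM in diet replicates 0, 1 and 2, 4.30 in dabigatran replicate 1 and was listed at 0 in dabigatran replicate 2. The dabigatran libraries thus held both the highest and the lowest value, and the 0 allows up to 4.77 FPKM.

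Ccl4, a macrophage inflammatory protein that attracts monocytes and T cells, had 0.785 FPKM in diet replicate 1 and 1.02 and 1.13 in dabigatran replicates 1 and 2, and was listed at 0 in diet replicates 0 and 2. Its values did not form small whole multiples, and from its 660 exon bases they correspond to about 3.62 fragments over all 5 libraries. Both dabigatran values lay above the diet values, on about 1 fragment each.

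Cxcl16, a membrane-anchored chemokine that is shed by Adam10 and binds Cxcr6, had 3.17, 2.08 and 4.01 FPKM in diet replicates 0, 1 and 2 (18, 9 and 22 fragments). It had 4.52 and 1.14 in dabigatran replicates 1 and 2 (22 and 5 fragments). As with Ccl5, the dabigatran libraries held both extremes.

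Over the set, diet replicate 2 held the highest value of 4 genes, dabigatran replicate 1 of 4 and dabigatran replicate 2 of 2. Against the diet mean, the median log2 value of the tested members was -0.08, -0.04 and 0.34 in diet replicates 0, 1 and 2 and 0.47 and -0.02 in dabigatran replicates 1 and 2. The higher libraries of each group were thus close to each other, as were the lower ones.

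The dabigatran group was compared with the diet group by limma on log2(FPKM + 0.5) over the 10247 genes that reached 1 FPKM in 3 or more of the 5 libraries. A gene could meet this filter through the 3 diet libraries alone, but not through the 2 dabigatran libraries alone. The higher and lower directions therefore did not have an equal chance to be tested. Ccl5, Ccl6, Ccl9, Cxcl1, Cxcl12, Cxcl16 and Il1b met this filter, while Ccl2, Ccl4 and Tnf did not. Of the 7 tested members, 0 passed an adjusted p of 0.05 and 0 an unadjusted one, against 0.429% and 16% of all tested genes (0.127% higher and 0.303% lower with dabigatran). The shares of 0.429% and 16% apply to each later limma count too. With limma's voom on whole fragments 0 of 6 passed either, against 0.0247% and 13.7% of the 8087 genes so tested, shares that apply to each later voom count too. By mean log2 value 3 members were higher and 4 lower with dabigatran (51.9% and 48.1% of all tested genes), and their median log2 difference was -0.12, beside 0.02 over all tested genes.

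The precision differed widely among the members. Cxcl12 had 101 ± 19.5 FPKM (SD, n = 3) with the diet and 119 ± 28.6 (SD, n = 2) with dabigatran, a fitted 1.17-fold difference with a 95% interval of 0.812 to 1.68 (limma adjusted p = 0.664). For Ccl9 the groups had 7.47 ± 0.601 and 8.39 ± 0.252 FPKM, and the interval ran from 0.811-fold to 1.54-fold (limma adjusted p = 0.739). The intervals of Cxcl12, Ccl9 and Ccl6 (0.515-fold to 1.39-fold, limma adjusted p = 0.743) were the narrowest. A p that misses the threshold does not show that the groups are alike.

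For the sparse members the intervals reached far in both directions. Il1b had a log2 difference of 0.54 ± 0.55 (SE), with a fold interval of 0.602 to 3.52 (limma adjusted p = 0.669), and Cxcl1 one of -0.12 ± 0.48 (SE; 0.425-fold to 1.98-fold, limma adjusted p = 0.927). Cxcl16 had -0.29 ± 0.48 (SE; 0.381-fold to 1.77-fold, limma adjusted p = 0.812). Ccl5, with its value listed at 0, had -0.95 ± 0.83 (SE; 0.138-fold to 1.94-fold, limma adjusted p = 0.609).

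Single libraries set the direction of 6 of the 7 differences. Without dabigatran replicate 1, Il1b had -0.35 and Cxcl12 -0.02 on the log2 scale, while Ccl6 and Cxcl1 had 0.16 and 0.08. Without dabigatran replicate 2, Il1b had 1.44, Ccl5 0.68 and Cxcl16 0.52, and without diet replicate 2 Cxcl1 had 0.39. Ccl5 passed without dabigatran replicate 1 (log2 difference -2.58, limma adjusted p = 0.0479), where the remaining dabigatran library is the one listed at 0; over the 12 alternatives its adjusted p ran from 0.0479 to 0.822. Ccl9 kept a positive sign in all 13 of its alternatives (0.08 to 0.22).

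**Figure D2:**
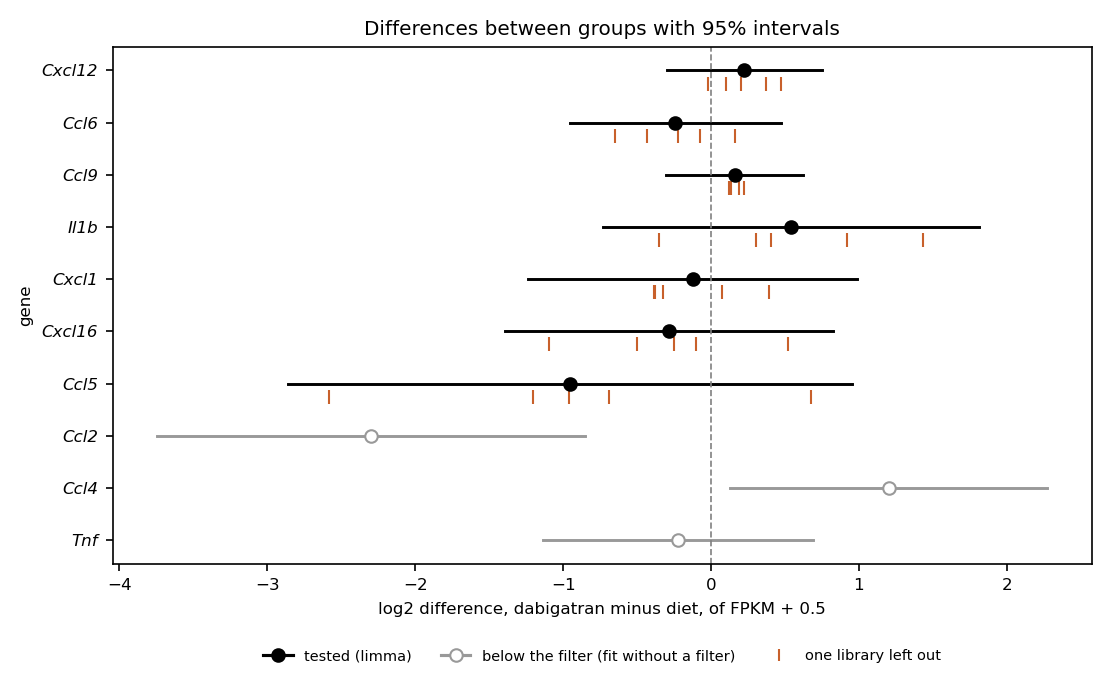
Log2 difference of FPKM + 0.5, dabigatran minus diet (horizontal axis, linear), of each gene with its 95% limma interval. Filled points are the 7 tested genes, open grey points the 3 below the filter from the fit without one, and orange ticks the value with 1 library left out (tested genes only). Each tested interval spans 0, and the ticks of every tested gene other than Ccl9 fall on both sides of 0.

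The 3 members below the filter were fitted in the alternative without a filter, which covered 15121 genes and called 0, with 816 higher and 1117 lower at an unadjusted p under 0.05. Ccl2 had a log2 difference of -2.30 ± 0.61 (SE; limma unadjusted p = 0.00703, adjusted p = 0.208) and Ccl4 one of 1.20 ± 0.45 (SE; limma unadjusted p = 0.0327, adjusted p = 0.340). Tnf had -0.22 ± 0.39 (SE, adjusted p = 0.836). These fits rest on the few fragments given above and do not see their counting error. Without diet replicate 2, Ccl2 had -1.66 (limma unadjusted p = 0.00245, adjusted p = 0.418), with the remaining diet values on 2 and 1 fragments. Its adjusted p ran from 0.258 to 0.560 over the diet libraries left out. The sign of Ccl2 and Ccl4 was kept with each library left out, whereas that of Tnf was not.

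The remaining chemokines of the CC family were mostly listed at 0. Of the 14 other CC genes looked up, 7 were at 0 in all 5 libraries, among them the eosinophil attractant Ccl11 and the dendritic cell ligands Ccl17 and Ccl19, and 3 were tested, of which 0 passed (limma; 1 at an unadjusted p under 0.05, and 0 with 1 by voom). The gene with the lowest p was Ccl27a, a skin-homing chemokine gene, with 4.92, 3.44 and 9.14 FPKM in the diet libraries, a listed 0 in dabigatran replicate 1 and 0.772 in replicate 2 (limma adjusted p = 0.0674). It reached 1 FPKM in the diet libraries alone, so it met the filter only through the group where it was high. Of its 50-base windows, 45.0% also occur in other genes, so its value is uncertain. Ccl25 and Ccl24 had log2 differences of 0.31 and 0.05.

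Of 13 other CXC, CX3C and XC chemokines, 4 were tested and 0 passed (limma; 3 at an unadjusted p under 0.05, and 0 with 1 by voom). Cxcl9 and Cxcl10, the interferon-induced ligands of Cxcr3, had their high values in diet replicates 0 and 2. For Cxcl9 these were 12.87 and 13.01 FPKM against 4.03 in diet replicate 1 and 0.853 and 1.89 with dabigatran (limma adjusted p = 0.0833), and for Cxcl10 6.64 and 7.33 against 1.16, 2.07 and a listed 0. Cxcl13, a B cell attractant, had 15.9 FPKM in dabigatran replicate 1 and 1.09 to 2.68 in the other 4 libraries (limma adjusted p = 0.218).

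Cxcl12 made up 61.0%, 76.8% and 50.5% of the summed FPKM of the 35 listed chemokine genes in diet replicates 0, 1 and 2, and 71.2% and 72.2% in dabigatran replicates 1 and 2. The sum without Cxcl12 was 62.1, 37.1 and 82.6 FPKM with the diet and 56.1 and 37.9 with dabigatran. Diet replicate 1 and dabigatran replicate 2 thus held the smallest remainder, one in each group. Of the 35 genes, 21 were listed at 0 in each of these libraries, against 11 to 18 in the others. They are also the 2 shallowest libraries (0.761 and 0.772 of the depth of diet replicate 0, against 0.857 to 1 in the others), and the part of depth in these counts was not tested.

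**Figure D3:**
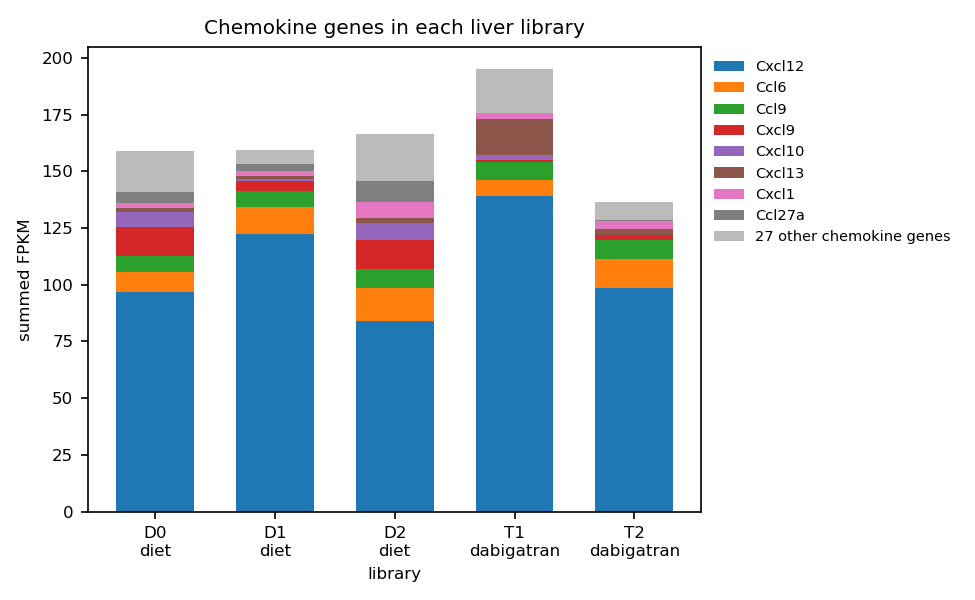
Summed FPKM (vertical axis from 0) of the 35 listed chemokine genes in each library (horizontal axis), stacked by gene. Cxcl12 fills 50.5% to 76.8% of each bar, Cxcl9 and Cxcl10 are thickest in D0 and D2, and Cxcl13 is visible mainly in T1.

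Receptors of several of these ligands were read in the same libraries. Ccrl2, a chemerin-binding receptor, had a log2 difference of -0.24 (limma adjusted p = 0.794). Ccr2, the receptor of Ccl2, had 2.68, 0.306 and 1.69 FPKM with the diet and 0.680 and 0.453 with dabigatran, below the filter, and the groups overlapped.

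Cxcr4, the signalling receptor of Cxcl12, was listed at 0 in diet replicates 0 and 1, had 0.254 FPKM in diet replicate 2, and 2.58 and 1.27 in dabigatran replicates 1 and 2. In the fit without a filter its log2 difference was 2.03 ± 0.36 (SE; limma adjusted p = 0.121). Cxcr6, the receptor of Cxcl16, had 0, 0.308 and 0.242 FPKM with the diet and 1.09 and 0.607 with dabigatran (adjusted p = 0.278 in that fit). Both receptors were thus above all diet libraries in each dabigatran library, at low levels and without passing. Neither met the filter, and the groups did not overlap for 34.4% of all tested genes either. Cxcr2, the receptor of Cxcl1, lay between 0.139 and 0.901 FPKM. Of 4 atypical receptors, which bind chemokines without the usual signalling, 1 was tested and did not pass (Ackr2, listed as Ccbp2, log2 difference 0.76, limma adjusted p = 0.442; 0 at an unadjusted p under 0.05 and 0 by voom), and the Cxcl12 scavenger Ackr3, listed as Cxcr7, had at most 0.594 FPKM.

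Among 7 proteases and their partners that release TNF or trim chemokines, 6 were tested by limma. Of these, 0 passed and 0 had an unadjusted p under 0.05, as for the 5 that voom held. Adam10, which sheds Cxcl16, lay between 7.92 and 9.87 FPKM in all 5 libraries. Adam17, which sheds TNF, had 4.69 to 7.27 FPKM with the diet and 3.83 and 3.89 with dabigatran (limma adjusted p = 0.388). Mmp14 and Rhbdf2 had log2 differences of 0.58 and 0.68.

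In the interleukin 1 and inflammasome list, 11 of 16 genes were tested by limma, with 5 higher and 6 lower. Of these, 0 passed and 2 had an unadjusted p under 0.05, against 0 and 1 of the 9 that voom held. Il1r1, the receptor of interleukin 1, had 5.48, 6.29 and 4.95 FPKM with the diet and 9.44 and 52.0 with dabigatran (limma adjusted p = 0.175). Dabigatran replicate 2, high for the receptor, was low for Il1b. The related ligand Il1a had 3.80 to 4.99 FPKM with the diet and 4.17 and 1.74 with dabigatran, and Irak4, a kinase downstream of the receptor, had a log2 difference of -0.67.

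In the TNF signalling list, 12 of 15 genes were tested by limma, with 8 higher and 4 lower. Of these, 0 passed and 2 had an unadjusted p under 0.05, against 0 and 1 of the 9 that voom held. Tnfrsf1a had 24.9, 22.9 and 25.2 FPKM with the diet and 29.8 and 32.0 with dabigatran (limma adjusted p = 0.376), so the receptor was far above its ligand Tnf in every library. Tnfrsf1b overlapped between the groups (5.62 to 8.81 and 6.29 to 8.80 FPKM). Tab2, an adaptor of the kinase TAK1, and Birc3, a ubiquitin ligase, had log2 differences of 0.64 and 0.55.

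Of 19 genes of NF-kappa-B and its feedback, 15 were tested by limma. Among them, 0 passed and 0 had an unadjusted p under 0.05, as for the 10 that voom held. By mean log2 value 11 were higher and 4 lower with dabigatran, with a median of 0.24, beside 51.9% higher and a median of 0.02 over all tested genes. Nfkbia, the inhibitor that NF-kappa-B itself induces, had 12.7, 12.5 and 15.2 FPKM with the diet and 15.4 and 16.4 with dabigatran (limma adjusted p = 0.574). Vcam1, an adhesion molecule of activated endothelium, and the subunits Nfkb1 and Rela had log2 differences of 0.49, 0.40 and 0.47.

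Of 20 other cytokines, 8 were listed at 0 in all libraries, Il6 among them, and 6 were tested by limma. Of these 6, 0 passed and 1 had an unadjusted p under 0.05, against 0 and 1 of the 4 that voom held. Tnfsf10, the death ligand TRAIL, had 4.33, 2.73 and 3.45 FPKM with the diet and 2.53 and 0.539 with dabigatran (limma adjusted p = 0.271). Spp1, osteopontin, had 49.4, 31.2 and 39.0 FPKM with the diet and 35.3 and 9.54 with dabigatran, and Mif, a constitutive cytokine, had a log2 difference of 0.27.

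Marker genes of the cells that could carry these transcripts were read in the same libraries. In whole liver, fewer cells of a type and less RNA per cell cannot be told apart. Hepatocyte genes dominated every library, with Alb between 18532 and 27246 FPKM. The 8 hepatocyte genes summed to 29749 to 32311 FPKM with the diet and to 33652 and 47552 with dabigatran. By limma 0 passed, with 5 at an unadjusted p under 0.05 (16% of all tested genes), and voom held none of them. The groups did not overlap for 7 of the 8, against 34.4% of all tested genes. By mean log2 value 7 were higher with dabigatran and 1 was lower. Ttr was lower (log2 difference -0.54) and among those without overlap. Alb, the most abundant of the list, overlapped (log2 difference 0.15). All 14 Kupffer cell and macrophage markers were above 0 in each library and summed to 395, 465 and 519 FPKM with the diet and to 533 and 350 with dabigatran. Of these 14, 0 passed (limma; 1 at an unadjusted p under 0.05, and 0 with 1 by voom). The sum was highest in dabigatran replicate 1 and lowest in dabigatran replicate 2, the libraries with the highest and lowest Cxcl16, and its part in the members' values was not tested.

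Neutrophil markers differed widely from library to library. The 8 genes of that list in the tables summed to 5.04, 2.27 and 22.5 FPKM in diet replicates 0, 1 and 2 and to 47.5 and 1.84 in dabigatran replicates 1 and 2, mostly S100a8 and S100a9, which other myeloid cells also express. Of these genes, 4, 3, 5, 7 and 1 were above 0 in the same libraries. Dabigatran replicate 1 held the highest value of 6 of the 8, while Retnlg was highest in diet replicate 0 (1.30 FPKM, against 1.16 in dabigatran replicate 1) and Camp was above 0 in diet replicate 2 alone (1.05 FPKM). Marco, a scavenger receptor of macrophages, had 2.44, 4.08 and 8.50 FPKM with the diet and 15.5 and 2.88 with dabigatran. The library with the highest Il1b was thus also the highest for the neutrophil sum, for Marco and for Cxcl13, though diet replicate 1, second for Il1b, had a low neutrophil sum, and their part in the Il1b values was not tested.

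Lymphocyte markers were near the limit of detection. The 12 T and NK cell genes summed to 4.06, 2.28 and 5.52 FPKM with the diet and to 3.12 and 0.723 with dabigatran, with Cd8a at 0 throughout, and 6 B cell genes summed to 1.46 to 4.64. Dabigatran replicate 2, with the lowest T and NK cell sum, is the library in which Ccl5 was listed at 0, and the part of these cells in that value was not tested. The 8 monocyte genes summed to 94.0 to 128 FPKM with the diet and to 169 and 188 with dabigatran, mostly Fn1, which hepatocytes make. Of the 2 tested monocyte and 2 tested neutrophil genes, 0 passed by limma, with 1 and 0 at an unadjusted p under 0.05. Voom held 1 and 2 of them, with 0 passing and 0 at an unadjusted p under 0.05. The genes of the monocyte list did not share a direction. Ly6c2, the defining gene of inflammatory monocytes, had 0.667, 0.876 and 1.38 FPKM with the diet and was listed at 0 in each dabigatran library. F13a1 had 0.142 to 0.433 FPKM with the diet and was listed at 0 with dabigatran. Neither met the filter, and no limit at 0 is given for them, so these low values do not show a loss. S100a4 had 2.37 and 1.04 FPKM in diet replicates 0 and 1 and was listed at 0 in diet replicate 2 and with dabigatran. Plac8, the other abundant gene beside Fn1, overlapped (17.8, 9.59 and 17.6 FPKM against 18.0 and 12.6), as did Itgam, Chi3l3 and Ccr2. The part of monocytes in the Ccl2 values was not tested.

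Endothelial markers, of interest beside Cxcl12, summed to 137, 138 and 141 FPKM with the diet and to 134 and 132 with dabigatran, with all 10 above 0 in each library. The level sum covers opposite differences: by mean log2 value 7 genes were higher and 3 lower with dabigatran, and 9 of the 10 did not overlap between the groups (34.4% of all tested genes). Lyve1, a hyaluronan receptor of sinusoidal endothelium, had 8.92 ± 1.53 FPKM (SD, n = 3) with the diet and 20.9 ± 3.25 (SD, n = 2) with dabigatran (limma adjusted p = 0.0689). Clec4g, a sinusoidal lectin and the most abundant of the list, had 52.4 ± 1.76 and 31.3 ± 8.37 FPKM (limma adjusted p = 0.139). Stellate cell and fibroblast markers summed to 122, 183 and 135 FPKM with the diet and to 127 and 138 with dabigatran. In dabigatran replicate 1, where Cxcl12 was highest, both sums were the second lowest of the 5 libraries. Diet replicate 1, second for Cxcl12, held the highest stellate cell and fibroblast sum. The part of these cells in the Cxcl12 values was not tested. Of the 10 and 9 tested genes of the endothelial and the stellate lists, 0 passed by limma, with 3 and 2 at an unadjusted p under 0.05. Voom held 8 and 7, of which 0 passed and 3 and 1 had an unadjusted p under 0.05. Of the 5 platelet genes, at most 4 were above 0 in a library, summing to 0.126 to 2.45 FPKM, and the 6 cholangiocyte genes summed to 11.1 to 52.0, mostly Spp1.

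**Figure D4:**
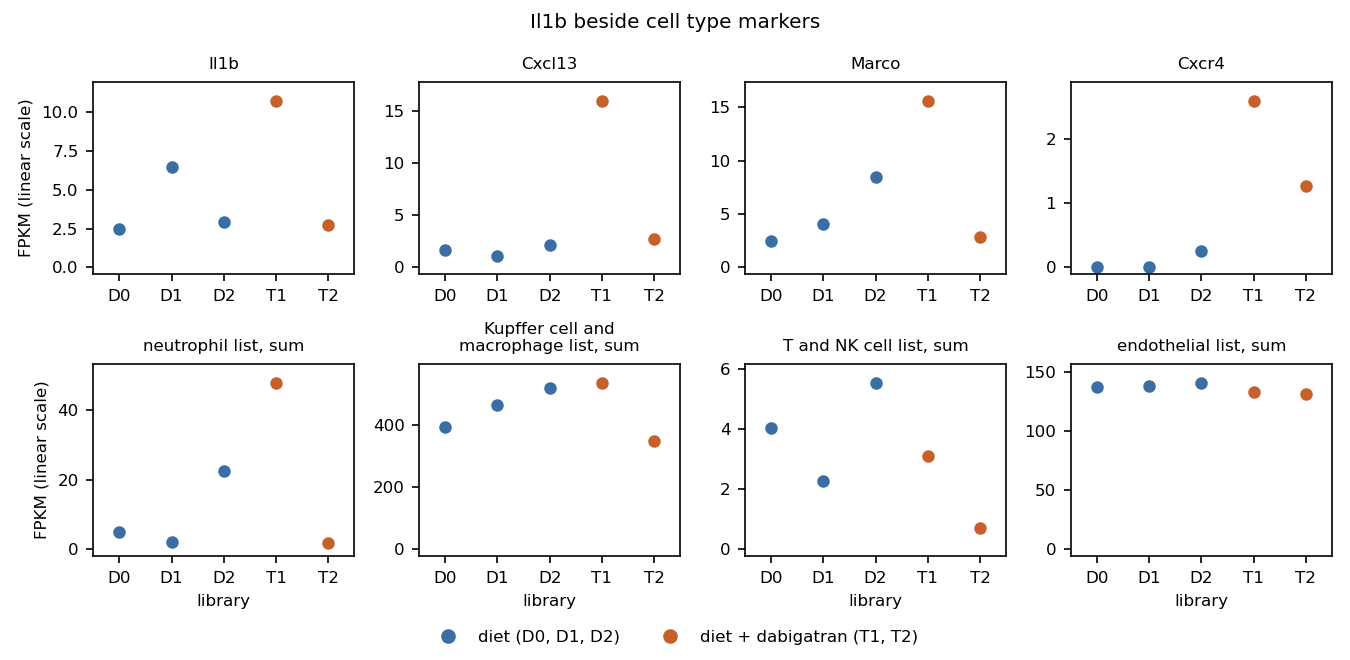
FPKM (linear vertical axes) in each library of Il1b, Cxcl13, Marco and Cxcr4, and the summed FPKM of 4 marker lists, in diet (D0, D1, D2) and dabigatran (T1, T2) libraries. Il1b, Cxcl13, Marco and the neutrophil sum are each highest in T1, and the endothelial sum stays between 132 and 141 FPKM although 7 of its 10 genes have higher and 3 lower mean log2 values with dabigatran.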

How the data were processed

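FPKM values were deposited by the authors, 1 table a sample, as named per the file headers. The submitters' processing notes name TopHat2 2.0.4, Cuffdiff, CASAVA, TopHat and R 2.15.1, and the builds mm10 and GRCm38, without their roles. Annotation, strand use and scaling are not given in the sources used. Identical dabigatran tables were counted as 1, which leaves 5 libraries where 6 tables were deposited. The design text speaks of 3 mice a group; the sample labels name no animal, so p-values measure the spread between these samples.

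Genes reaching 1 FPKM in 3 or more libraries were tested by limma 3.58.1 in R 4.3.3 (lmFit, eBayes with a variance trend) on log2(FPKM + 0.5), two-sided, with Benjamini-Hochberg adjustment over all tested genes and a threshold of 0.05. The fold changes understate the change of low genes. The fit was tested on simulated data.

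Relative depth is the commonest ratio between libraries among genes under 0.3 FPKM. Fragments are the smallest whole numbers in the depth-scaled values (relative tolerance 6e-05, up to 400 in the lowest library), which held for 78.9% of tested genes and 2.1% of randomly shifted ones; true numbers can be a multiple. Members with more than the exon length allows (Ccl4) or no whole numbers (Cxcl12) have none.

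The 10 genes, the 9 further pathway lists, the 10 marker lists and the tests were chosen with earlier results of these data known. Beside the 10, genes were named by rule: those called in a list, up to 3 more by unadjusted p, and the receptors and Nfkbia. Other genes named, among them Marco, Rpl30, Adam10, Alb, the single markers of monocytes, neutrophils and endothelium, and genes listed at 0, were chosen after their values were seen. Of the receptors, 1 is not reported here.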

Additional observations from a re-analysis of the deposited data

How the results depend on the processing

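Of 13 alternatives, 1 called a member: Ccl5 without dabigatran replicate 1, with a log2 difference of -2.58 (limma adjusted p = 0.0479). With 1 library left out, 0 to 1 members were called. The median over tested members, -0.12, was 0.16 with at least 5 FPKM, where only Ccl6, Ccl9 and Cxcl12 remain, and ran from -0.25 to 0.47 with 1 library left out, the highest without dabigatran replicate 2. Over all tested genes 13 were called higher and 31 lower, 44 in all. The count was 23 with a pseudocount of 0.1, 0 without a filter, 27 after quantile normalization, 0 without a variance trend and 2 with voom on whole fragments, where genes above 400 fragments drop out. It ran from 0 to 294 with 1 library left out: 1 without diet replicate 0, 294 without diet replicate 1, 0 without diet replicate 2, 275 without dabigatran replicate 1 and 0 without dabigatran replicate 2. The causes were not tested.

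The replicate number as a block called 13 genes and 0 members, with a median of -0.25 over members. Among the distinct libraries only numbers 1 and 2 occur in both groups. The deviations of same-numbered libraries from their group means had correlations of -0.04 and -0.03. With 2 dabigatran libraries, their deviations are mirror images of each other, so these correlations cannot decide whether same-numbered libraries were paired. Leaving out each library in the fit without a filter was chosen after seeing the data. Depth limits all members under about 10 fragments, 4 to 6 of the 8 with whole fragments in each library.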
